A study of Mus musculus with 22 samples.

Results

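The 4 untreated mouse embryonic stem (ES) cell clones titled Duxnto1 (17, 22, 31 and 40) were set against the 3 libraries titled E14-chen (1, 2 and 3), which makes 7 of the 22 RNA sequencing libraries of the series. They were chosen by sample title and by the absence of a compound, not by any measured value. Duxnto1 is read here as the Dux (n=1) genotype of the labels, ES cells made with CRISPR-Cas9 and taken to keep 1 copy of the duplicated Dux cluster. E14-chen is read as wild-type cells of the E14 mouse ES line. All were grown in serum with leukaemia inhibitory factor (LIF). The fit also held 3 untreated Dux-KO clones (15, 22 and 52). A second set was used beside it, with 2 libraries titled Dux-N22-DMSO and 2 titled WT-DMSO, from cells given the solvent DMSO for 3 days. N22 is read as 1 clone of the Dux (n=1) genotype, and the labels do not say whether it is the clone numbered 22 in the untreated set. The labels name no culture, day of collection or batch. The p-values therefore measure only how far these samples vary, and within E14-chen that variation may be technical. Editing, clone isolation and differences between lines or batches cannot be told apart.

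The Dux gene codes for a transcription factor with a double homeobox, which is expressed briefly when the zygotic genome is activated and switches on genes of the 2-cell embryo, among them the Zscan4 and Usp17-like families. ES cell cultures hold rare cells that pass through such a state. Its genes lie in a repeated array on chromosome 10, and the study asks what the second copy of the cluster contributes.

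Totals were 15803194 to 19368202 counts in the Duxnto1 clones and 17654369 to 18297387 counts in E14-chen. No pair of libraries held identical values. Chi-square per degree of freedom between libraries of a group was 13.2 to 49.9 for the clones and 5.42 to 10.0 for E14-chen, so the clones differed more among themselves than the E14-chen libraries did. Mitochondrial genes took 2.18% to 2.60% of counts in the clones and 2.75% to 2.99% in E14-chen. Values per library are normalised CPM, the counts scaled to library size with TMM factors. The ES cell factor Pou5f1 had 997, 843, 1178 and 1073 CPM in clones 17, 22, 31 and 40, against 957, 1039 and 1024 CPM in E14-chen 1, 2 and 3, and was not called (adjusted p = 0.92). The fibroblast markers Postn, Lum and Twist2, which would mark feeder cells, had 0 counts in all 7 libraries. The 13 fibroblast markers together came to 19.2, 35.3, 16.8 and 13.6 CPM in the clones and 13.1 to 13.6 CPM in E14-chen, with Mmp2, a secreted protease, at 11.6, 20.02, 7.03 and 5.34 CPM in the clones and 5.56 to 6.35 CPM in E14-chen, and Pdgfrb next. Their part in the results was not tested.

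Of 14796 genes tested, 1355 (9.16%) passed an adjusted p of 0.05 in edgeR's quasi-likelihood test with Benjamini-Hochberg adjustment over all tested genes. They are called here. In the Duxnto1 clones 722 were higher (4.88%) and 633 were lower (4.28%), and 243 and 159 of these differed at least 2-fold. Every clone lay beyond every E14-chen library for 718 of the higher and 629 of the lower genes. The same held for 15.3% of all tested genes on the higher side and 18.2% on the lower side. The median log2 difference over all tested genes was 0.01.

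The number of calls depended on single libraries. Without E14-chen 1 there were 24 calls, without E14-chen 3 there were 52, and without E14-chen 2 there were 344. Without clone 17 there were 351, whereas leaving out clone 22, 31 or 40 left 1237, 1146 and 1144. DESeq2 called 2515 genes, among them 1352 of the 1355. An offset for GC content left 302 calls, of which 258 were among the 1355.

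The WT-DMSO libraries, which are not edited at Dux per their title, lay on the same side of E14-chen as the Duxnto1 clones for most called genes. Their CPM were normalised apart from the untreated set, so this is a comparison of levels across sets. Of the 722 genes called higher in Duxnto1, both WT-DMSO libraries lay above all 3 E14-chen libraries for 703 (97.4%), against 44.1% of all tested genes. Of the 633 called lower, both WT-DMSO libraries lay below E14-chen for 582 (91.9%), against 32.7% of all tested genes. The Dux-N22-DMSO libraries did so for 715 (99.0%) and 576 (91.0%). E14-chen thus stood apart from the edited clones and from these WT cells for most of the called genes. The called genes were chosen by their distance from these same E14-chen libraries, so the high shares are partly set by that choice. Solvent, batch and line cannot be told apart in this comparison.

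Within the second set, Dux-N22-DMSO against WT-DMSO shares no library with the untreated comparison. It called 4221 of 16641 genes (25.4%). Of the genes called higher in untreated Duxnto1, 721 were also tested there, and 251 (34.8%) were higher in Dux-N22-DMSO, 57 of them called higher and 230 called lower. Of 628 called lower in untreated Duxnto1, 212 (33.8%) were lower in Dux-N22-DMSO, with 54 called lower and 145 called higher. Over all genes tested in both, 36.8% of those with a positive untreated difference and 42.5% of those with a negative one had the same sign in the second set. Of the 7525 positive genes 617 were called the same way there and 1582 the opposite way. Of the 7217 negative genes 665 were called the same way and 1270 the opposite way. The shares called the same way were thus close to those over all genes.

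The differences followed the GC content of the exons. Genes were put into 10 equal bins by GC content. In the lowest bin the median log2 ratio to the E14-chen mean was -0.40, -0.38, -0.43 and -0.45 in clones 17, 22, 31 and 40, and 0 genes were called higher while 249 were called lower. In the highest bin the medians were 0.28, 0.29, 0.26 and 0.23, with 180 genes called higher and 12 called lower. The clones were close to each other, with a rise between these bins of 0.674, 0.676, 0.684 and 0.676. Genes called higher had a median GC content of 54.9% and genes called lower 42.3%, against 49.7% for genes not called.

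Single E14-chen libraries had trends of their own. Set against the mean of the other E14-chen libraries, the rise was -0.278 in E14-chen 1, 0.279 in E14-chen 2 and 0.002 in E14-chen 3, so that the first and the second pointed in opposite directions. Dux-KO clones 15, 22 and 52 rose by 1.22, 0.910 and 0.842 over the same E14-chen mean. Over E14-chen, across the separate normalisations, the rise was 0.653 and 0.600 in Dux-N22-DMSO and 0.692 and 0.789 in WT-DMSO. Within the second set it was -0.0757 and -0.136 in Dux-N22-DMSO over the WT-DMSO mean. The GC content offset took the rise in the fitted untreated differences to -0.04, and the genes then called had a median GC content of 51.5% (higher) and 51.7% (lower). The calls of most gene groups are therefore given below also with this offset, where 170 genes were called higher (1.15%) and 132 lower (0.892%).

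**Figure D1:**
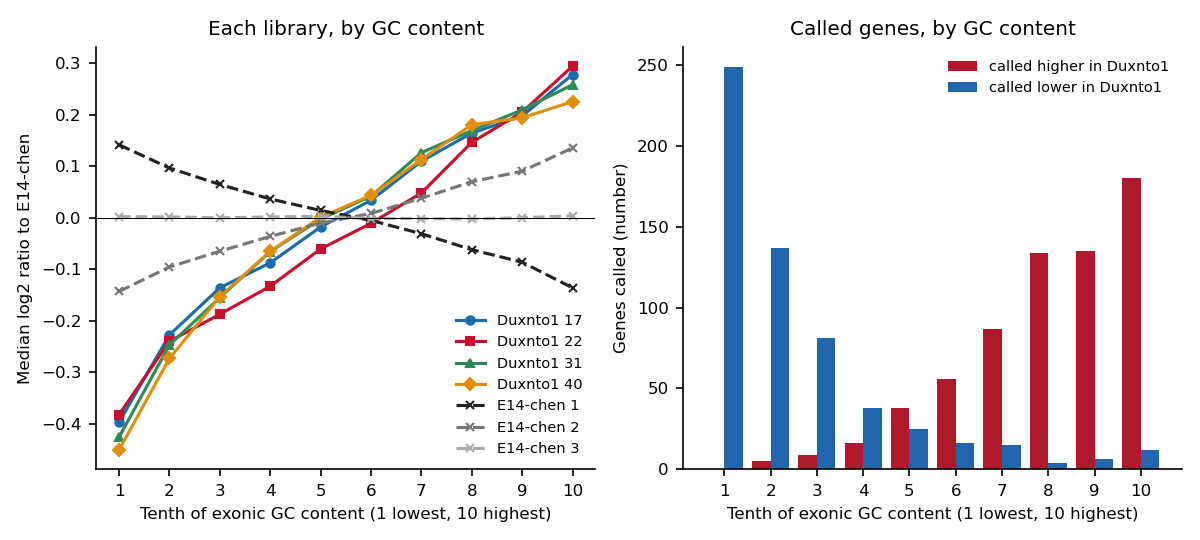
Left, median log2 ratio of each library to E14-chen in 10 bins of exonic GC content (E14-chen libraries against the mean of the other E14-chen libraries); right, number of genes called higher and lower in Duxnto1 in each bin. The 4 clones rise together with GC content, E14-chen 1 and 2 slope in opposite directions, and 249 of the genes called lower lie in the lowest bin.

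A group of 22 genes was called by edgeR, with the GC content offset, by DESeq2 and in all 7 fits that left out 1 of the compared libraries, 14 of them higher and 8 lower in Duxnto1. Every other called gene lost its call in at least one of these. Perp, a p53 target and desmosome-associated membrane protein, had 7.43, 9.72, 8.77 and 9.53 CPM in the clones, against 36.1, 35.5 and 35.6 CPM in E14-chen. The groups were far apart and each was narrow. Perp fell by 2.01 ± 0.17 on the log2 scale (SE; adjusted p = 0.000835). Ptpn14, a tyrosine phosphatase that restrains the Hippo pathway effector YAP, had 13.2, 10.95, 8.77 and 10.9 CPM, against 32.4, 36.4 and 33.4 CPM, and fell by 1.64 ± 0.16 (adjusted p = 0.00174). Coch, a secreted extracellular matrix protein best known from the inner ear, had 2.64, 4.88, 5.48 and 3.56 CPM in the clones and 24.5, 22.8 and 20.9 CPM in E14-chen (log2 -2.45 ± 0.32, adjusted p = 0.00475). Ccng1, the p53-induced cyclin G1, had 90.7, 102, 104 and 119 CPM, against 258, 201 and 227 CPM (log2 -1.14 ± 0.13, adjusted p = 0.00253). Arap2, Wdr35, Cep170 and CT010467.1 made up the other lower genes, with log2 differences of -1.65, -0.80, -1.003 and -2.66. CT010467.1 is annotated as ribosomal RNA.

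Among the 14 higher genes of this group, Prx, the periaxin of myelinating Schwann cells, had 94.1, 84.3, 83.6 and 99.5 CPM in the clones, against 33.9, 41.4 and 35.6 CPM in E14-chen (log2 1.29 ± 0.11, adjusted p = 0.000916). E2f1, a transcription factor of S phase entry, had 79.1, 98.0, 83.96 and 75.1 CPM, against 35.4, 40.1 and 38.1 CPM (log2 1.15 ± 0.12, adjusted p = 0.00241). Dnmt3a, a de novo DNA methyltransferase, had 173, 154, 146 and 113 CPM, against 65.0, 67.3 and 65.0 CPM (log2 1.15 ± 0.13, adjusted p = 0.00265). All clones lay well above all E14-chen libraries for these 3 genes, and clone 40 was the lowest clone for Dnmt3a. Nos3, the endothelial nitric oxide synthase, rose by 1.91 ± 0.22 (adjusted p = 0.00253). Flnc (filamin C), Akirin2 (a nuclear import factor of proteasomes), H2afy2 (the histone variant macroH2A2), Cenpv, Dgkz, Zmynd19, Ssbp4, Ccdc85c and Prss50 rose by 0.83 to 1.32.

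The separate levels of the second set lay with the clones for all 22, which had been chosen by their distance from the same E14-chen libraries. Perp had 10.4 and 11.4 CPM in Dux-N22-DMSO and 9.24 and 8.09 CPM in WT-DMSO, both far under the E14-chen values above. Dnmt3a had 171 and 166 CPM in Dux-N22-DMSO and 163 and 151 CPM in WT-DMSO. Ptpn14 was graded, at 8.02 and 11.4 CPM in Dux-N22-DMSO and 19.6 and 17.8 CPM in WT-DMSO. It was the only one of the 8 lower genes that was also called lower in Dux-N22-DMSO (log2 -0.94, adjusted p = 1.07e-10). Perp and CT010467.1 were called higher there, by 0.34 and 1.06 (adjusted p = 0.019 and 0.041). Of the 14 higher genes, 2 were also called higher there, Prx by 0.17 (adjusted p = 0.013) and Nos3 by 0.33 (adjusted p = 0.027), and 4 were called lower, E2f1 among them (log2 -0.35). Of all genes tested in that set 11.5% were called higher and 13.9% lower.

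**Figure D2:**
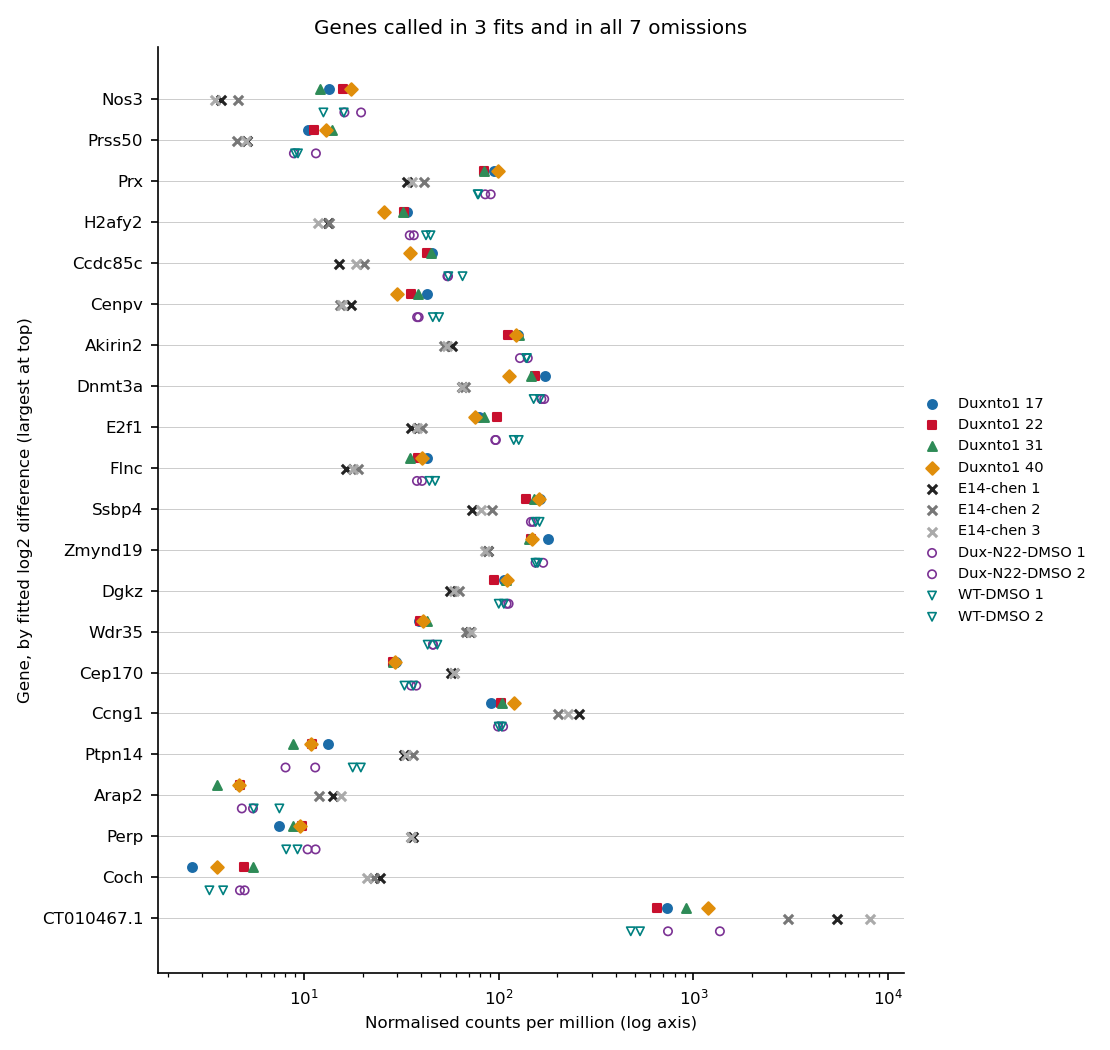
Normalised CPM on a log axis for 21 of the 22 genes called in 3 fits and in all 7 omissions, with the 4 Duxnto1 clones, 3 E14-chen libraries and, normalised separately, 2 Dux-N22-DMSO and 2 WT-DMSO libraries. The clones and E14-chen do not overlap for any gene, and the WT-DMSO libraries lie on the Duxnto1 side of E14-chen for all 21 drawn, with Ptpn14 between them.

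A small set differed from its own reference in both comparisons while WT-DMSO did not leave the E14-chen range on the Duxnto1 side in both libraries. It holds 8 genes called higher and 18 called lower in both, out of the 57 and 54 called the same way in both. Those 57 and 54 were close to the shares over all genes given above. These were picked by their values and are a description. Spn, the sialoglycoprotein CD43 of leukocytes, had 17.9, 15.8, 14.6 and 20.7 CPM in the clones, against 8.92, 8.21 and 9.99 CPM in E14-chen. It had 23.4 and 20.7 CPM in Dux-N22-DMSO and 9.83 and 9.35 CPM in WT-DMSO. The edited and the unedited libraries were separated in each set, with log2 differences of 0.93 ± 0.16 (adjusted p = 0.0095) and 1.20 (adjusted p = 8.67e-16). Spn kept its call with the GC content offset (adjusted p = 0.026) and in 5 of the 7 omissions. Lck, a lymphocyte tyrosine kinase, had 18.9 to 29.3 CPM in the clones, against at most 14.7 CPM in E14-chen, and 24.4 and 22.7 CPM in Dux-N22-DMSO, against 14.1 and 17.3 CPM in WT-DMSO. Myo1f (a class I myosin of leukocytes), Tuba4a (an alpha tubulin), Myh13 (a myosin heavy chain of eye muscle), Col6a5, Tmc5 and Rpl10l (a testis-enriched paralog of a ribosomal protein) were the others, with untreated log2 differences of 0.81, 0.43, 0.83, 1.34, 1.46 and 0.45. Only Spn, Col6a5 and Tmc5 of these 8 kept their call with the GC content offset.

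Among the 18 lower ones, Mpdz, a scaffold protein of cell junctions, had 3.62, 3.01, 2.71 and 2.62 CPM in the clones, against 5.89, 6.79 and 6.06 CPM in E14-chen, with 3.01 and 4.67 CPM in Dux-N22-DMSO and 7.53 and 7.51 CPM in WT-DMSO. Bbx, an HMG box protein, had 32.2, 28.8, 32.6 and 24.6 CPM, against 49.9, 45.6 and 51.5 CPM, and 33.7 and 31.9 CPM in Dux-N22-DMSO, against 46.0 and 42.9 CPM in WT-DMSO. The untreated log2 differences were -1.06 ± 0.20 for Mpdz and -0.73 ± 0.13 for Bbx (adjusted p = 0.014 and 0.012). Mpdz kept its call with the GC content offset (adjusted p = 0.049) and Bbx did not (0.095). Hmmr, a hyaluronan receptor that acts at the mitotic spindle, and the chromatin remodeller Chd2 fell by 0.58 and 0.53 and lost their calls with the offset (adjusted p = 0.16 and 0.17). Of the 18, Mpdz and the gene model Gm12690 alone kept theirs.

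Dux itself was hardly counted. Duxf3, which stands for Dux in the annotation and lies at chr10:58229979-58232675 on GRCm38, had 1, 3, 0 and 1 raw counts in the clones and 1, 0 and 0 in E14-chen, too few for a test. Reads that match several copies were not counted, so this does not measure copy number. Of 13 tested 2-cell genes 2 were called lower (15.4%, against 4.28% of all tested genes) and 0 higher. The median log2 difference was -1.78, and 12 of the 13 had all clones below all E14-chen libraries (18.2% of all tested genes). However, 43 genes of the list were found, and only 13 passed the count filter. Low genes could pass it through E14-chen, such as Zscan4e with 6, 10, 2 and 1 raw counts in the clones and 27, 15 and 11 in E14-chen. The lower direction of the 13 is thus partly set by the filter, and the untested members went both ways. The per-clone medians were -1.25, -0.97, -2.55 and -3.38 in clones 17, 22, 31 and 40, so that clones 31 and 40 lay lowest. Gm21761, a gene model of the list, had 13, 17, 5 and 5 raw counts in the clones and 56, 53 and 47 in E14-chen (log2 -2.40 ± 0.62, adjusted p = 0.037). Ddit4l, a stress-induced inhibitor of mTOR signalling, had 2.89, 4.04, 3.42 and 4.61 CPM, against 7.28, 7.18 and 6.85 CPM (log2 -0.92 ± 0.26, adjusted p = 0.048). Both calls were lost with the GC content offset, under which the list median was -1.51, and in the fit without clone 17, without clone 40 or without any one E14-chen library.

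In the 2-cell list the WT-DMSO libraries lay nearer to E14-chen than the clones did. All Duxnto1 clones lay below E14-chen for 12 of the 13 genes, both Dux-N22-DMSO libraries for 12, and both WT-DMSO libraries for 6. Over all tested genes these shares were 18.2%, 30.0% and 32.7%. The median log2 ratio to the E14-chen mean, after adding 0.5 CPM, was -1.10, -0.81 and -0.30 in that order. This was not particular to the 2-cell list, since imprinted genes had -0.39, -0.27 and 0.13 in the same order. Against WT-DMSO, 7 of the 13 were called lower and 1 higher in Dux-N22-DMSO, where 13.9% of all tested genes were called lower and 11.5% higher. Gm21761 had 0.445 and 0.322 CPM in Dux-N22-DMSO and 2.03 and 2.57 CPM in WT-DMSO (log2 -2.57, adjusted p = 2.83e-08). Zscan4d, of the multi-copy Zscan4 family, had 12, 17, 3 and 3 raw counts in the clones and 23, 24 and 42 in E14-chen and was not called (adjusted p = 0.087), but was called lower in Dux-N22-DMSO (log2 -1.36, adjusted p = 0.0046).

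Of 29 known repressors and activators of Dux or the 2-cell state, 2 were called higher (6.90%) and 1 lower (3.45%), near the 4.88% and 4.28% of all tested genes. Kdm1a, the histone demethylase LSD1, had 341, 360, 289 and 281 CPM in the clones, against 217, 202 and 213 CPM in E14-chen (log2 0.59 ± 0.10, adjusted p = 0.011; 0.015 with the offset). Chaf1b, a subunit of the CAF-1 histone chaperone, rose by 0.63 ± 0.13 (adjusted p = 0.016; 0.053 with the offset). Atrx, a chromatin remodeller, had 119, 103, 96.5 and 96.7 CPM, against 285, 225 and 248 CPM, and fell by 1.28 ± 0.31 (adjusted p = 0.029; 0.10 with the offset). Dux-N22-DMSO and WT-DMSO differed little for Atrx, at 172 and 188 CPM and 178 and 178 CPM.

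Targets of p53, the transcription factor of the DNA damage response, were lower as a group: 7 of 26 tested were called lower (26.9%, against 4.28% of all tested genes) and 0 higher, with a median log2 difference of -0.33. All clones lay below E14-chen for 13 of them, against 18.2% of all tested genes. With the GC content offset 5 were lower (0.892% of all tested genes) and the median was -0.42. Per clone the medians were -0.37, -0.39, -0.58 and -0.40. Beside Perp and Ccng1, Plk2, a polo-like kinase, had 20.7, 23.1, 25.9 and 30.7 CPM in the clones, against 57.7, 54.9 and 56.4 CPM in E14-chen (log2 -1.17 ± 0.25, adjusted p = 0.021). Mdm2, the ubiquitin ligase that degrades p53, fell by 0.57 ± 0.15 (adjusted p = 0.037), and Trp53inp1, Phlda3 and Eda2r fell by 0.99, 0.57 and 1.03. Cdkn1a, the cell cycle inhibitor p21 and a classical p53 target, had 51.5, 70.4, 27.2 and 54.2 CPM, against 40.7, 43.3 and 44.0 CPM, overlapping E14-chen, and was not called (adjusted p = 0.51). Without clone 17, or without any one E14-chen library, 2 of the list were called lower, and without clone 22 there were 10. In WT-DMSO 17 of the 26 lay below E14-chen in both libraries, against 32.7% of all tested genes, with a median log2 ratio of -0.31.

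Hypoxia and glycolysis genes were higher as a group. The hypoxia-inducible factors bind a short element, ACGTG in its core, and switch on glucose transport, glycolysis and pyruvate dehydrogenase kinase. The promoters of a pair of called members with matches, the hexokinase gene Hk1 and the lactate dehydrogenase gene Ldha, are printed 5′ to 3′ on the strand of the gene, 250 bases before to 50 bases after the start, from RefSeq on GRCm38.p6. Hk1 is at chr10:62340372-62340671 on the minus strand and Ldha at chr7:46845554-46845853 on the plus strand. Capitals mark ACGTG on either strand, which reads CACGT on the other, and where both overlap the run is CACGTG.
Hk1: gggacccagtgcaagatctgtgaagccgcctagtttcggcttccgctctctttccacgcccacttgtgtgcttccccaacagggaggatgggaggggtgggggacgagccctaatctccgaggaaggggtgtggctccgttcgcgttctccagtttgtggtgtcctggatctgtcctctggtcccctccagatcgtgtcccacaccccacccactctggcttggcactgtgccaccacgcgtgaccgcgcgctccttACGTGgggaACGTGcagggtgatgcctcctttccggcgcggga
Ldha: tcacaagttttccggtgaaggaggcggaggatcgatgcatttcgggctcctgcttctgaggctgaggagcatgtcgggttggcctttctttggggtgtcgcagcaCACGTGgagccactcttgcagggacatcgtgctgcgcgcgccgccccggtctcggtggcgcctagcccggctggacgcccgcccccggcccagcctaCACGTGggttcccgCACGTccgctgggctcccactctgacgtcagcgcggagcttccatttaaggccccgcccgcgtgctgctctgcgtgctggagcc
The printed window of Hk1 holds 2 matches and that of Ldha 5, since each of the 2 CACGTG runs of Ldha counts on both strands. For each gene the window with the most matches was printed. ACGTG on either strand was in 25 of 45 promoter windows of the list's genes (55.6%), in 8 of 17 windows of the called genes (47.1%) and in 19.6% of all 32851 windows. The other form of the core, GCGTG, was in 55.6% of the list's windows and 32.4% of all windows, but in 5 of 17 windows of the called genes (29.4%). A match is a description of the letters and not a binding site.

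Of 35 tested genes of this list 10 were called higher (28.6%, against 4.88% of all tested genes) and 0 lower. The median log2 difference was 0.59, and all clones lay above E14-chen for 20 (15.3% of all tested genes). Hk1 had 111, 154, 81.7 and 82.6 CPM in the clones, against 39.6, 46.5 and 45.5 CPM in E14-chen (log2 1.29 ± 0.25, adjusted p = 0.015; 0.043 with the offset). Pdk1, the kinase that shuts pyruvate dehydrogenase, had 281, 236, 227 and 250 CPM, against 171, 169 and 171 CPM (log2 0.54 ± 0.11, adjusted p = 0.016; 0.020 with the offset). These were the only members called with the GC content offset (1.15% of all tested genes were called higher with it), although the list median stayed at 0.58. Aldoa, an aldolase, had 1562, 1796, 1503 and 1398 CPM, against 1101, 1089 and 1092 CPM (adjusted p = 0.018; 0.18 with the offset). Ldha had 1363, 1526, 1298 and 1329 CPM, against 1028, 1026 and 1024 CPM (adjusted p = 0.023; 0.080 with the offset). All clones were above E14-chen for these 4. Tpi1, Pfkl and Gpi1 of glycolysis, the MYC antagonist Mxi1, the carbonic anhydrase Car9 and the prolyl hydroxylase Egln3 were the other genes called higher.

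The list was uneven between clones, with medians of 0.52, 1.11, 0.33 and 0.18 in clones 17, 22, 31 and 40. Without clone 22 the fitted median was 0.38, with 8 calls, without clone 17 there were 2 calls, and without any one E14-chen library there were 0. Clone 22 stood apart for genes that were not called, such as Bhlhe40, a repressor induced by hypoxia, with 73.2 CPM in clone 22 and 4.83 to 9.89 CPM in the other 6 libraries. Ndufa4l2, a mitochondrial protein induced by hypoxia, had 31.3 CPM in clone 22 and at most 4.48 CPM elsewhere. In the second set both WT-DMSO libraries lay above E14-chen for 33 of the 35 genes and both Dux-N22-DMSO libraries for 34, at median log2 ratios of 1.28 and 1.17. Over all tested genes these shares were 44.1% and 41.4%. Hk1 had 132 and 133 CPM in Dux-N22-DMSO and 176 and 178 CPM in WT-DMSO. In Dux-N22-DMSO 15 of the 35 were called lower and 1 higher, against 13.9% and 11.5% of all genes tested in that set.

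**Figure D3:**
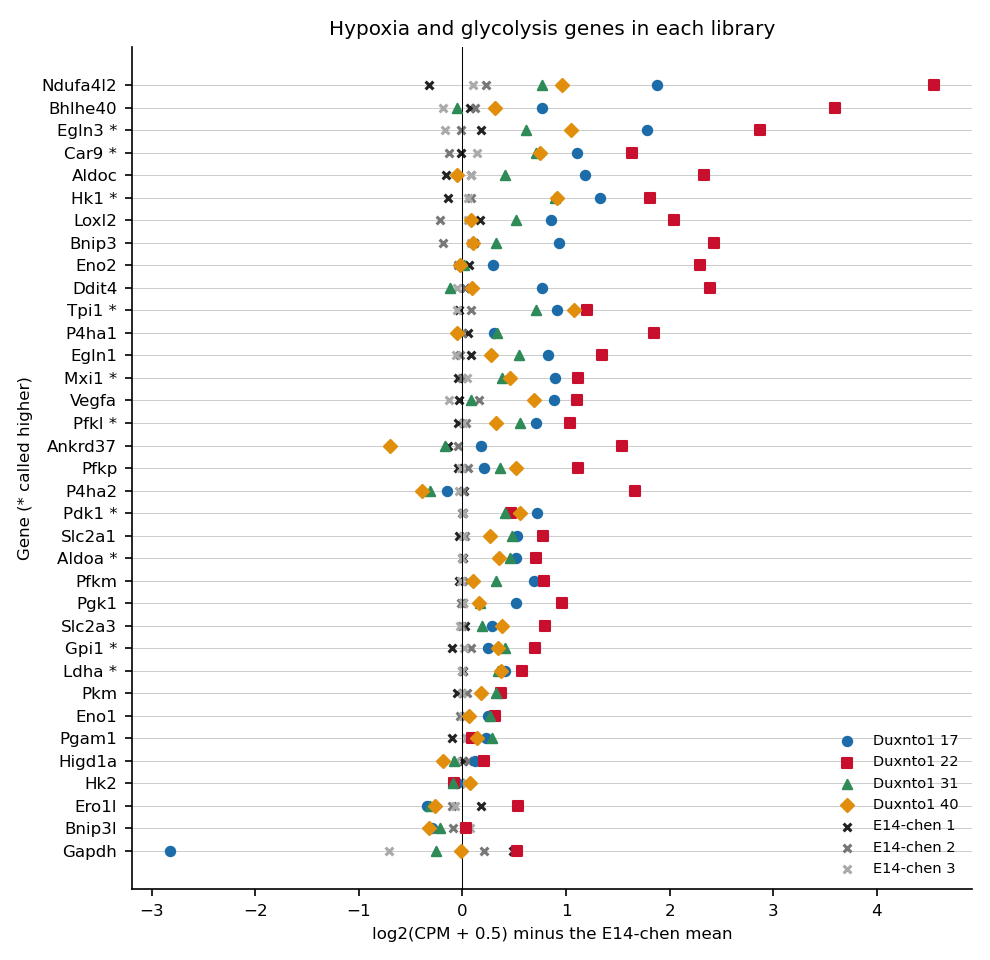
Each hypoxia and glycolysis gene as log2(CPM + 0.5) minus the E14-chen mean, 1 marker for each of the 4 clones and 3 E14-chen libraries, with an asterisk for the 10 genes called higher. Clone 22 is the highest of the 7 libraries for most genes, and the clones overlap E14-chen for others such as Gapdh, which is lowest in clone 17.

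Cholesterol synthesis genes, which the factor SREBP2 controls, had 8 of 24 called higher (33.3%, against 4.88% of all tested genes) and 0 lower. Their median log2 difference was 0.35. The clones were alike here, at medians of 0.45, 0.38, 0.33 and 0.37. Srebf2, which encodes SREBP2, had 480, 479, 390 and 434 CPM in the clones, against 291, 338 and 306 CPM in E14-chen (log2 0.51 ± 0.10, adjusted p = 0.014; 0.11 with the offset). Insig1, the feedback inhibitor of SREBP processing, had 140, 153, 98.3 and 115 CPM, against 76.3, 75.9 and 78.6 CPM (log2 0.72 ± 0.14, adjusted p = 0.014; 0.021 with the offset). Fdft1 and Mvd, enzymes early in the pathway, rose by 0.58 and 0.63, and Dhcr7, Nsdhl, Lss and Tm7sf2 were the others. With the offset 4 were called higher (1.15% of all tested genes), Insig1, Dhcr7, Lss and Nsdhl, and the median was 0.33. Without E14-chen 1 or 3 there were 0 calls and without E14-chen 2 there were 3. Both WT-DMSO libraries lay above E14-chen for 19 of the 24, against 44.1% of all tested genes. In Dux-N22-DMSO against WT-DMSO 8 were called lower and 1 higher, against 13.9% and 11.5% of all genes tested in that set.

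Of 28 genes of the ATF4 amino acid response and the unfolded protein response 3 were called higher (10.7%, against 4.88% of all tested genes). Aldh18a1, an enzyme of proline synthesis, had 212, 206, 188 and 210 CPM in the clones, against 135, 141 and 141 CPM in E14-chen (log2 0.55 ± 0.09, adjusted p = 0.0069; 0.038 with the offset). Pck2, the mitochondrial PEP carboxykinase, rose by 0.68 ± 0.13 and Xbp1, a transcription factor of the unfolded protein response, by 0.41 ± 0.10. Xbp1 was also called higher in Dux-N22-DMSO (log2 0.25, adjusted p = 5.59e-06). Of 14 heat shock genes Bag3, a co-chaperone, was called higher (log2 0.76) and Chordc1 and Dnaja1 lower (-0.60 and -0.49), and none of them with the offset. These shares are 7.14% and 14.3%, against 4.88% and 4.28% of all tested genes.

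Of 30 DNA replication genes 4 were called higher (13.3%, against 4.88% of all tested genes) and 1 lower (median log2 0.14). Cdt1, the licensing factor, had 261, 255, 273 and 262 CPM in the clones, against 198, 214 and 198 CPM in E14-chen (log2 0.37 ± 0.08, adjusted p = 0.020; 0.53 with the offset). Lig1, Mcm6 and Pold1 rose by 0.34, 0.27 and 0.42, and Orc6 fell by 0.38. Of 24 mitosis genes 4 were called lower (16.7%, against 4.28% of all tested genes) and 0 higher (median log2 -0.10; -0.0056 with the offset). Ndc80, a kinetochore protein, had 42.8, 38.1, 42.0 and 44.6 CPM, against 63.6, 60.4 and 63.1 CPM (log2 -0.57 ± 0.09, adjusted p = 0.0069; 0.086 with the offset). Kif11, a spindle motor, and the centromere proteins Cenpe and Cenpf fell by 0.52, 1.09 and 1.08. With the offset 0 of the mitosis genes and, of the replication genes, Mcm6 alone (adjusted p = 0.0497) were called. Of 24 G1 and S phase regulators 2 were called higher (8.33%, against 4.88% of all tested genes) and 1 lower (4.17%, near 4.28%), with a median log2 difference of -0.04. E2f1 and E2f2 rose and Ccne2, cyclin E2, fell by 0.56 with GC content of 37.6%, and E2f1 alone was called with the offset.

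Of 75 nuclear genes of the respiratory chain 3 were called lower (4.00%, near the 4.28% of all tested genes) and 1 higher, with a median log2 difference of -0.14. All clones lay below E14-chen for 28 of them, against 18.2% of all tested genes. Cox7c, a subunit of cytochrome c oxidase, had 168, 165, 164 and 159 CPM in the clones, against 258, 220 and 248 CPM in E14-chen (log2 -0.56 ± 0.09, adjusted p = 0.0076; 0.034 with the offset). Atp5j and Uqcrh fell by 0.36 and 0.39, and Uqcrc1, a core subunit of complex III, rose by 0.34. With the offset 7 were lower, against 0.892% of all tested genes, and 0 higher. Of 80 cytosolic ribosomal protein genes 3 were called lower and 1 higher. Rps29 had 250, 261, 227 and 245 CPM, against 358, 330 and 352 CPM (log2 -0.50 ± 0.09, adjusted p = 0.012). Of 77 mitochondrial ribosomal protein genes Mrpl50 and Mrpl42 were called lower, by 0.50 and 0.52, and neither kept its call with the offset. Both shares lie below those of all tested genes, and with the offset 2 cytosolic and 1 mitochondrial ribosomal protein genes were lower and 0 higher.

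Factors of DNA methylation did not move together. Of 22 tested 2 were higher (9.09%, against 4.88% of all tested genes) and 1 lower (4.5%, near the 4.28% of all tested genes). Beside Dnmt3a, Uhrf1, which guides DNMT1 to newly replicated DNA, had 670, 601, 719 and 726 CPM in the clones, against 531, 549 and 515 CPM in E14-chen (log2 0.35 ± 0.09, adjusted p = 0.030; 0.36 with the offset). Zbtb33, the methyl-binding protein Kaiso, fell by 0.79 ± 0.14 (adjusted p = 0.011; 0.19 with the offset). With the offset Dnmt3a alone of the list was called. Dnmt1 had 514, 495, 518 and 488 CPM, against 471, 488 and 466 CPM, and was not called (adjusted p = 0.61). Of 26 tested imprinted genes 4 were lower (15.4%, against 4.28% of all tested genes) and 0 higher, with a median of -0.42. Igf2, the paternally expressed growth factor, had 2.58, 2.27, 3.55 and 2.62 CPM, against 6.76, 6.67 and 9.09 CPM (log2 -1.45 ± 0.25, adjusted p = 0.0095; 0.014 with the offset). Grb10, Sfmbt2 and Impact fell by 0.56, 0.57 and 0.87, and Igf2 alone was called with the offset. Igf2 was also lower in Dux-N22-DMSO than in WT-DMSO (log2 -0.98, adjusted p = 0.0039), and the list was level in WT-DMSO, with 12 of 26 above and 12 below E14-chen.

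Of 20 genes of the KRAB zinc finger cofactor and H3K9 methylation, which silence retroelements, 5 were lower and 0 higher. That is 25% called lower, against 4.28% of all tested genes, with a median log2 difference of -0.33. Suv39h2, an H3K9 methyltransferase, had 28.9, 28.6, 30.4 and 28.5 CPM in the clones, against 38.6, 39.3 and 40.1 CPM in E14-chen (log2 -0.44 ± 0.10, adjusted p = 0.025; 0.30 with the offset). Zfp932, Pphln1, Mphosph8 and Cbx5 fell by 0.72, 0.55, 0.43 and 0.40. The median GC content of the list was 43.2%. In the GC content bin of 41.3% to 43.7%, 11.6% of genes were called lower. With the offset 0 were called and the median was -0.09.

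Of 33 germ cell and meiosis genes 3 were higher (9.09%, against 4.88% of all tested genes) and 1 lower (3.03%, against 4.28%). Stra8, which retinoic acid induces as germ cells enter meiosis, had 20.6, 30.2, 5.93 and 10.4 CPM in the clones, against 2.45, 2.28 and 2.25 CPM in E14-chen (log2 2.85 ± 0.75, adjusted p = 0.038; 0.077 with the offset). Dmc1, the meiotic recombinase, had 8.72, 17.2, 8.06 and 8.32 CPM, against 3.96, 4.56 and 3.59 CPM (log2 1.39 ± 0.29, adjusted p = 0.020; 0.020 with the offset). Stag3, a meiotic cohesin, rose by 1.15 ± 0.26 and Ddx4, a germ cell RNA helicase, fell by 0.53 ± 0.15. Clone 22 was the highest for Stra8, Dmc1 and Stag3. WT-DMSO was higher still for Stra8, at 33.8 and 37.5 CPM, with 21.5 and 21.6 CPM in Dux-N22-DMSO. With the offset 3 germ cell genes were higher (1.15% of all tested genes) and 0 lower, Ddx4 no longer among them. Without any one E14-chen library 0 germ cell genes were called.

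Pluripotency genes were close to E14-chen. Of 22 tested 1 was lower (4.5%, near the 4.28% of all tested genes) and 0 higher, with a median log2 difference of 0.02. Nanog had 410, 392, 394 and 474 CPM in the clones, against 456, 437 and 457 CPM in E14-chen, and was not called (adjusted p = 0.70). Zfp42, the marker REX1, had 659, 538, 624 and 612 CPM, against 755, 741 and 762 CPM (log2 -0.31 ± 0.08, adjusted p = 0.043; 0.16 with the offset). Of 16 formative and primed genes and 15 primitive endoderm genes 0 were called in either direction. Of 11 germ layer markers Eomes was higher (log2 0.86) and Tbx20 lower (-2.14), and neither kept its call with the offset (adjusted p = 0.082 and 0.059). Each makes 9.09% of the list, against 4.88% higher and 4.28% lower over all tested genes. Id1 and Id2, inhibitors of bHLH factors downstream of BMP, were the called members among 18 BMP genes (11.1% lower, against 4.28% of all tested genes). Id1 had 30.0, 34.2, 55.0 and 39.3 CPM, against 92.1, 87.3 and 92.0 CPM (log2 -1.19 ± 0.17, adjusted p = 0.0055; 0.0069 with the offset), while it was called higher in Dux-N22-DMSO (28.1 and 26.9 CPM) than in WT-DMSO (19.07 and 16.6 CPM; log2 0.62). Id2 had 3.13, 9.07, 11.7 and 3.72 CPM, against 31.0, 27.6 and 25.3 CPM (log2 -2.02 ± 0.47, adjusted p = 0.027; 0.063 with the offset).

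**Figure D4:**
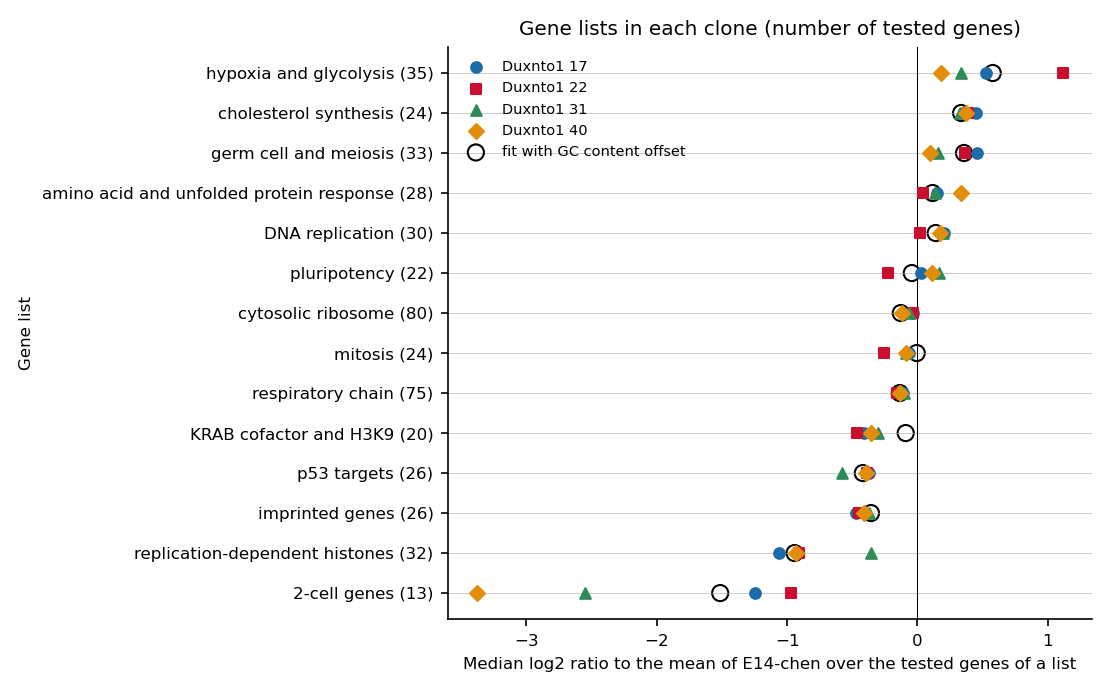
Median log2 ratio of each Duxnto1 clone to the E14-chen mean over the tested genes of 14 lists, with an open circle for the median fitted with the GC content offset. Clone 22 is highest for hypoxia and glycolysis at 1.11, clones 31 and 40 are lowest for 2-cell genes at -2.55 and -3.38, and the open circle of the KRAB and H3K9 list sits nearer to 0 than any clone.

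The largest differences were in short noncoding RNAs and were uneven within E14-chen. Rn7sk, the 7SK RNA, had 0.0614, 0.296, 0.193 and 0.262 CPM in the clones, against 52.6, 1.82 and 68.4 CPM in E14-chen (log2 -7.56 ± 1.14, adjusted p = 0.0067). Rpph1, the RNA of RNase P, had 0.737, 0.296, 0.516 and 0.419 CPM, against 43.5, 1.54 and 83.2 CPM (log2 -6.45 ± 1.19, adjusted p = 0.012). E14-chen 2 lay close to the clones and the other libraries of its group far above, and without E14-chen 1 neither was called. Dux-N22-DMSO 1 also had 7.63 CPM of Rn7sk, against 0.376 CPM in Dux-N22-DMSO 2 and 0.267 and 0.210 CPM in WT-DMSO. The replication-dependent histones, whose messages lack a poly(A) tail, had the same order within E14-chen, although E14-chen 2 lay below clone 31. Their sums were 24.0, 27.4, 39.0 and 26.3 CPM in the clones and 68.4, 28.6 and 83.5 CPM in E14-chen. Of 32 tested 6 were called lower (18.75%, against 4.28% of all tested genes), with a median of -0.93. Without E14-chen 1 or 3, or without clone 17 or 40, 0 were called, and without E14-chen 2 there were 9. The ribosomal RNA CT010467.1 had this order within E14-chen too, at 733, 652, 921 and 1190 CPM, against 5443, 3051 and 8116 CPM.

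Among the other large changes, genes of low level prevailed. Ggt1, a gamma-glutamyltransferase, had 7.98, 15.6, 4.58 and 8.95 CPM in the clones, against 1.63, 1.94 and 1.85 CPM in E14-chen (log2 2.36 ± 0.46, adjusted p = 0.015; 0.038 with the offset). Col5a3, a fibrillar collagen, had 18.4, 29.3, 14.4 and 12.9 CPM, against 4.90, 4.62 and 5.44 CPM (log2 1.91 ± 0.27, adjusted p = 0.0054; 0.014 with the offset). Sema4g, a semaphorin, had 13.8, 29.9, 7.93 and 8.27 CPM, against 2.74, 3.59 and 3.59 CPM (log2 2.18 ± 0.48, adjusted p = 0.022; 0.054 with the offset). Clone 22 was the highest of all 7 libraries for these 3 genes. Among the lower ones, Tmem144, a transmembrane protein, had 1.60, 2.17, 1.29 and 0.890 CPM, against 8.33, 6.33 and 6.29 CPM (log2 -2.22 ± 0.32, adjusted p = 0.0055; 0.014 with the offset). Vgll3, a cofactor of TEAD transcription factors, and Itga8, an integrin subunit, fell by 2.02 and 2.07. Anxa3, an annexin, fell by 2.04 ± 0.40 (adjusted p = 0.015) and was also called lower in Dux-N22-DMSO than in WT-DMSO (log2 -1.86, adjusted p = 2.38e-05).

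The clones were not alike. The median absolute log2 ratio to E14-chen was largest in clone 22, at 0.375, and 0.246 to 0.272 in the other 3 clones, and 0.061 to 0.104 for E14-chen libraries. Clones 17 and 22 were set against clones 31 and 40 by some genes. Klhl13, an adaptor of a ubiquitin ligase on the X chromosome, had 164 and 84.6 CPM in clones 17 and 22 and 15.4 and 17.5 CPM in clones 31 and 40, against 96.0 to 105 CPM in E14-chen. Aurkc, a meiotic kinase named after its values were seen, had 9.95 and 14.9 CPM and then 0.838 and 0.419 CPM, against 0.168 to 0.583 CPM, and was not called (adjusted p = 0.064). Other genes were chosen for the gap between 1 clone and the other 6 libraries and are a description. Clone 17 had 28.7 CPM of Gapdh, a glycolytic enzyme, against 126 to 298 CPM elsewhere, although Gapdh has many near-identical pseudogenes and its counts are uncertain. Clone 22 had 11.5 CPM of the Notch ligand Dll1, against at most 2.33 CPM elsewhere, and 0.148 CPM of the endoderm factor Sox7, against at least 1.60 CPM. Clone 31 had 28.7 CPM of Btbd6, against at most 14.8 CPM, and 6.38 CPM of Lpgat1, against at least 18.6 CPM. Clone 40 had 33.0 CPM of Dicer1, the enzyme that matures microRNAs, against 78.7 to 126 CPM elsewhere.

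Chromosome 6 was higher in clone 40. Its median log2 ratio to E14-chen over the 689 tested genes of that chromosome was 0.29, against -0.08, -0.08 and -0.06 in clones 17, 22 and 31. The other 18 autosomes and the X chromosome of clone 40 lay between -0.17 and 0.07, while the 9 tested Y genes had a median of -0.52 and the mitochondrial genes 0.25. Clone 40 was above all other 6 libraries for 313 of the 689 genes (45.4%) and for 12.7% of the 14107 genes elsewhere. In 8 runs of genes along the chromosome its medians were 0.28, 0.38, -0.14, 0.09, 0.23, 0.51, 0.54 and 0.37, so that the raised level was not even along it. The X chromosome, whose tested genes have a median GC content of 45.7%, lay at -0.16, -0.15, -0.20 and -0.17 in the 4 clones. Its fitted median was -0.15, and -0.02 with the GC content offset.

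**Figure D5:**
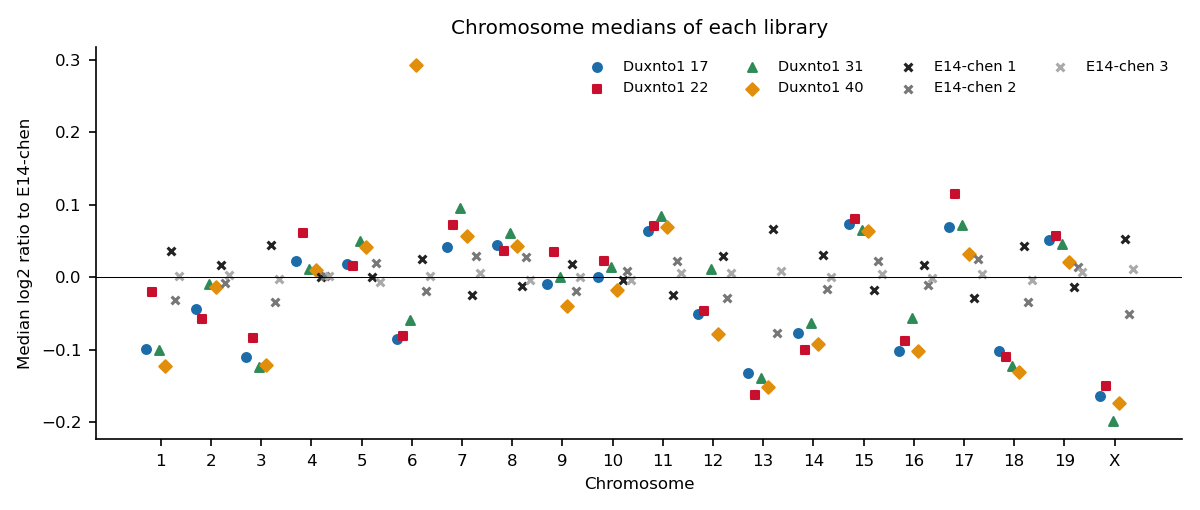
Median log2 ratio to E14-chen of the tested genes of each chromosome, for the 4 Duxnto1 clones and the 3 E14-chen libraries (each of these against the mean of the other E14-chen libraries). Chromosome 6 of clone 40 stands at 0.29, above every other point.

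Between the Duxnto1 and the Dux-KO clones 0 genes were called (0% of 14796). At an unadjusted p below 0.05 edgeR gave 856 genes, and DESeq2 called 0 with 964 at an unadjusted p below 0.05. With the GC content offset 0 were called and 587 had an unadjusted p below 0.05. This does not show that both kinds of edited clones are alike. Both were measured against the same E14-chen libraries. Dux-KO against E14-chen called 3016 genes. All 22 genes called under all settings for Duxnto1 were also called there in the same direction, so these differences are not particular to the Duxnto1 clones. Perp, Coch and Dnmt3a are given side by side. The log2 difference of Perp from E14-chen was -2.01 in Duxnto1 and -1.66 in Dux-KO. For Coch it was -2.45 and -2.38, and for Dnmt3a 1.15 and 0.97, in the same order.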

How the data were processed

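RNA of mouse ES cells was sequenced from libraries of a VAHTS kit, per the labels. The submitters' processing notes list fastp 0.23.2, HISAT2 2.1.0, featureCounts 2.0.1, DESeq2 1.40.2 and the build GRCm38. Each deposited file gives unnormalised counts per gene, summed over exons by featureCounts in paired mode, per the file headers. The commands there set no option for multi-mapping reads or strand, so copies of a family and overlapping genes can be mixed or lost. Symbols, GC content and length of merged exons came from GENCODE M21, which named 47310 of 47729 genes.

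The 10 untreated libraries were fitted together in R 4.3.3 by the robust quasi-likelihood test of edgeR 4.0.16, without a replicate term, after TMM scaling and filterByExpr at 10 counts, so the spread includes the Dux-KO clones. Adjusted p-values of genes are Benjamini-Hochberg over all tested genes, from edgeR unless DESeq2 is named, and a gene was called below 0.05. The SE is the size of the log2 difference divided by the root of the F statistic. The GC content offset is a spline of 5 degrees of freedom for each library, fitted to genes whose mean log2 CPM reached 1. The trend over bins used 11816 genes. The 12 libraries of the compound experiment were fitted apart in the same way. Depth limits precision by counting error only where counts are low, as in 2-cell genes.

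The members and the 43 gene lists were chosen with earlier results of these data known. Named genes are the defining members of the lists, the 15 largest called differences in each direction without overlap, up to 4 called members of each list, up to 20 genes called under all settings, and up to 4 genes in each direction that set 1 clone apart. 1 gene called under all settings is not reported here. The text names fewer by that rule, and also Aurkc, Spn, Lck, Myo1f, Tuba4a, Myh13, Col6a5, Tmc5, Mpdz, Bbx, Hmmr, Chd2 and further list members, which were chosen after their values were seen. Alternatives were DESeq2 1.42.0, RLE factors, no count filter, only the compared groups, the GC content offset without and with exonic length, and each compared library left out. Only the main edgeR comparison was run on simulated counts, with a common dispersion for all genes and no GC content trend. That run cannot show how DESeq2, the GC content offset, the omissions or the second set behave.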

Additional observations from a re-analysis of the deposited data

Results flagged for a closer look

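Of 140 results with 4 clone values, 14 had 1 clone far from the other 3 by Dixon's ratio of the gap to the range, at the 95% critical value. Chance flags about 1 in 20 groups. Clone 22 was the one apart in 6 of them, clone 31 in 4, and clones 17 and 40 in 2 each.

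Clone 22 was the highest for Lag3 (0.975), an immune checkpoint receptor, for Dmc1 (0.927), and for Bhlhe40 (0.933), Ndufa4l2 (0.909) and Dll1 (0.915), which had been picked for that gap. It was the lowest for Kif11 (0.922). Lag3 had 2.21, 5.47, 2.13 and 2.20 CPM in clones 17, 22, 31 and 40, against 0.874, 0.684 and 0.449 CPM in E14-chen.

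Clone 31 was the lowest for Arap2 (0.931), Cenpf (0.844) and Hmmr (0.918) and had the steepest rise with GC content (0.833), although the 4 rises span only 0.674 to 0.684. Clone 17 was the highest for Zmynd19 (0.867) and Mvd (0.888). Clone 40 was the highest for Maats1 (0.917), picked for its gap, and for the chromosome 6 median (0.931).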

How the results depend on the processing

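The 1355 calls (722 higher, 633 lower) became 2515 (1327 and 1188) with DESeq2, 2450 (1214 and 1236) when the fit held Duxnto1 and E14-chen alone, 302 (170 and 132) with the GC content offset and 280 (151 and 129) with GC content and length. RLE factors gave 1322 and no count filter 1154. Leaving out 1 library gave 24 to 1237 calls, 16 to 727 of them higher and 8 to 574 lower. Fewer samples lower the power of these fits, and beyond that the cause was not tested. Of the 107 named genes that were called, 51 kept their call with the GC content offset, 49 with GC content and length, 107 with DESeq2, 21 without E14-chen 1 and 94 without clone 22, and none changed direction under any alternative run.

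The rise with GC content averaged 0.6775 over the clones, 0.626 among genes of at least 10 CPM, and 0.764, 0.705 and 0.558 in the long, middle and short genes of 3 equal bins of exonic length. The chromosome 6 median of clone 40 was 0.29, and 0.31 among genes whose mean log2 CPM reached 5.

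Dux-N22-DMSO and WT-DMSO share replicate numbers. The deviations of same-numbered libraries correlated at 0.0287 over 12181 genes, so the numbers are not shown to pair them. With a replicate block 4255 genes were called in place of 4221, and 2811 to 3048 with 1 library left out, where the lone library is taken to vary as other groups do. DESeq2 called 3032. Calls in 2-cell genes and other genes of under about 1 CPM are limited by depth.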

Other observations

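Chromatin and signalling lists outside the report held few called members. Called higher were 4.17% of the Polycomb and Trithorax list, 6.25% of Wnt and 5.88% of interferon genes, near the 4.88% of all tested genes. Called lower were 4.17% of the Polycomb and Trithorax list and 4.5% of FGF and ERK targets, near the 4.28% of all tested genes. Of 24 Polycomb and Trithorax genes, Kdm6b, a demethylase of H3K27, had 85.6, 102, 103 and 71.4 CPM in clones 17, 22, 31 and 40, against 50.5, 58.8 and 56.4 CPM in E14-chen and was called higher (log2 0.71 ± 0.13, adjusted p = 0.012). The offset for GC content took its adjusted p to 0.091. Mtf2, a cofactor of PRC2, was called lower, with a log2 difference of -0.39 (adjusted p = 0.030; 0.89 with the offset). Of 16 Wnt targets Tcf7, a transcription factor of the pathway, had 87.2, 91.7, 55.0 and 59.0 CPM in the clones, against 37.1, 44.9 and 41.3 CPM in E14-chen (log2 0.83 ± 0.19, adjusted p = 0.024; 0.073 with the offset). Clones 17 and 22 lay above clones 31 and 40. Of 22 FGF and ERK targets Dusp4, a phosphatase of ERK, had 7.98, 7.30, 11.9 and 10.8 CPM, against 16.03, 15.3 and 13.7 CPM, and fell by 0.66 ± 0.19 (adjusted p = 0.048; 0.043 with the offset). It was also lower in Dux-N22-DMSO (7.74 and 7.47 CPM) than in WT-DMSO (12.98 and 12.6 CPM; log2 -0.75, adjusted p = 3.42e-06). Among 17 interferon and RNA sensing genes Oas1a was higher (log2 0.81, adjusted p = 0.028; 0.079 with the offset). Of the Nodal (16 tested), LIF and STAT3 (14), Notch and Hippo (13), Hox (8) and protocadherin (18) lists, 0 members were called by edgeR.

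Of the 13 protein-coding genes of the mitochondrial genome mt-Co1, a subunit of cytochrome c oxidase, was called lower, at 8950, 9538, 6975 and 7216 CPM in the clones, against 13280, 13010 and 13150 CPM in E14-chen (each to 4 digits; log2 -0.69 ± 0.14, adjusted p = 0.016). This makes 7.69% of the list called lower, against 4.28% of all tested genes. With the GC content offset the adjusted p of mt-Co1 was 0.31.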
